A study of Avena sativa with 108 samples.

Results

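Avenins and other prolamins were followed as 28 of the 68572 genes in the deposited oat count tables. The 28 genes are all rows whose protein description names an avenin, gliadin, glutenin, hordein, secalin or prolamin, without the factors that bind the prolamin box. The rule used descriptions and not levels, but it was set with earlier results of these data known. No row matched hordein or secalin, and the 28 genes carry 8 descriptions.

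Prolamins are alcohol-soluble seed storage proteins rich in glutamine and proline. In cereals they are made on the endoplasmic reticulum of starchy endosperm cells during grain filling, packed into protein bodies, and broken down after germination to supply the seedling with amino acids. Avenins are the oat prolamins. Oat differs from wheat and barley in that 12S globulins, not prolamins, are its main storage protein.

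Of the 28 genes, 9 were described as Avenin-3, 4 as Avenin and 1 as Avenin-E, which are oat protein names. A further 5 were described as Gamma-gliadin B, a sulfur-rich monomeric prolamin of wheat, and 5 as the high molecular weight glutenin subunit DY10, which in wheat forms the disulfide-linked polymers of gluten. The last 4 were described as avenin-like proteins of wheat (2 as a1, 1 as a4 and 1 as a5). The names are best matches to proteins, so a wheat name does not show that the oat protein forms gluten. The first 24 genes are called storage type here and the last 4 avenin-like.

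Gene IDs share the prefix AVESA.00001b.r3 and are given by their last part, in which the first characters name the chromosome and subgenome. By these IDs 15 genes lie in subgenome D, 5 in A and 3 in C, and 5 are on unplaced sequences (Ung). Chromosomes 1D and 3D carry 13 of the genes. In 4 runs of neighboring IDs stood 17 of the genes, namely 1Ag0003169 to 1Ag0003170 (2 genes), 1Dg0002263 to 1Dg0002266 (4), 3Dg0002796 to 3Dg0002803 (6) and Ung0000155 to Ung0000159 (5). Neighboring prolamin genes are often near-identical copies between which single-end reads can be divided wrongly, so values of single copies are less certain than sums over a description.

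The libraries came from 2 oat cultivars, AC Morgan and CDC Morrison. Whole developing grain without glumes was taken at 5, 10, 15, 20, 25, 30, 35 and 40 days postemergence of the panicle (DPE), and embryo and endosperm were taken from grain germinated on damp filter paper for 0 (dry grain), 3, 6, 24 and 48 h. Each of the 36 groups had 3 libraries, and each library of developing grain came from a single panicle, so p-values measure the spread between such samples. The 48 libraries of developing grain and the 60 of germination were fitted separately and are not compared by a test.

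Library totals were 11235677 to 30846271 counts in 47 developing grain libraries and 3895531 to 39871286 in the germination libraries. CDC Morrison 10 DPE replicate 1 stood apart with 2184402 counts and is not in the authors' normalized table. The 28 genes took 5.66% of its counts against 0.0035% to 0.0156% in the other 10 DPE libraries, and all 24 storage-type genes lay above each of those libraries. The 12S globulins took 22.7% of its counts, above the highest other 10 DPE library (0.0177%) and below the CDC Morrison 15 DPE libraries (41.4% to 43.3%). It was left out of the results below and is given separately where it changes them.

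As a share of all counts in a library, prolamin transcripts rose from traces to several percent of the library between 10 and 15 DPE and stayed high to 25 DPE. The share was 0.0027% to 0.0138% at 5 DPE (median 0.0038%) and 0.0035% to 0.0156% at 10 DPE (median 0.0042%). It was 6.44% to 9.66% at 15 DPE, 8.93% to 13.6% at 20 DPE and 9.11% to 12.2% at 25 DPE, with medians of 8.91%, 10.6% and 10.7%. No library of 15, 20 or 25 DPE overlapped one of 5 or 10 DPE. The share fell to 0.389% to 2.21% at 35 DPE and 0.300% to 1.67% at 40 DPE. The 95% Wilson interval of a library's share reached at most 0.0139 percentage points to either side, which covers counting error only. In bulk grain, fewer cells of a type and less RNA per cell cannot be told apart.

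At 30 DPE the cultivars stood apart in this share. AC Morgan held 7.64% ± 0.842 (SD, n = 3) of counts in prolamin transcripts, with 6.70%, 7.88% and 8.33% in the 3 libraries. CDC Morrison held 1.96% ± 1.59, with 0.870%, 1.23% and 3.78%. The groups did not overlap, although CDC Morrison replicate 3 lay well above its 2 partners. At 25 DPE the means had been 10.7% ± 0.804 in AC Morgan and 10.7% ± 1.55 in CDC Morrison, and at 35 DPE they were 1.31% ± 0.815 and 1.03% ± 0.623. The share is described without a test because the genes were chosen with earlier results of these data known.

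**Figure D1:**
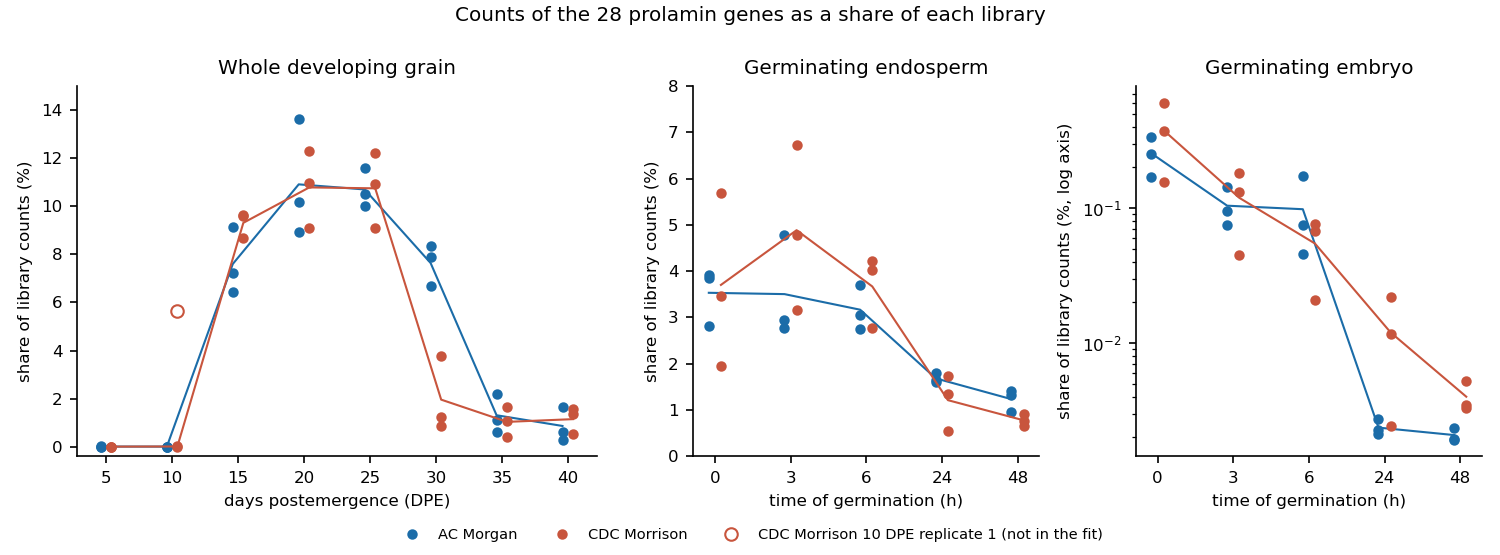
Counts of the 28 prolamin genes as a percentage of all counts in each library, by day postemergence in whole grain (left) and by hour of germination in endosperm (middle) and embryo (right, log axis). Points are libraries, lines join the means of each cultivar, and the open circle is CDC Morrison 10 DPE replicate 1, which was not in the fit. The share is 6.44% to 13.6% in all libraries of 15 to 25 DPE, and at 30 DPE the 3 AC Morgan libraries lie above the 3 CDC Morrison libraries.

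Globulin transcripts outnumbered prolamin transcripts throughout grain filling. The 37 genes described as 12S globulins took 24.3% to 43.3% of counts at 15 DPE and 22.2% to 39.2% at 25 DPE. The ratio of prolamin to globulin counts had medians from 0.24 at 15 DPE through 0.35 and 0.40 at 20 and 25 DPE to 0.58 at 30 DPE and 0.66 at 35 DPE, and ranges of neighboring times overlapped. Among the 50 genes with most counts in a library, 12 to 18 were prolamin genes at 15, 20 and 25 DPE and none at 5 or 10 DPE.

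The onset between 10 and 15 DPE took in every storage-type gene and none of the avenin-like genes. Levels are given as CPM, a gene's counts scaled to a common library size after correction by the trimmed mean of M-values (TMM). Because the scaling factors were 0.570 to 1.70, a summed CPM is not the same as a share of counts. Of the 28 genes, 24 rose from 10 to 15 DPE and none fell, against 18.1% of all 62030 genes tested that rose and 20% that fell (edgeR's quasi-likelihood test, Benjamini-Hochberg adjusted p under 0.05). The median log2 fold change of the 28 genes was 12.78, and 12.72 with the gene that had a group at 0 set to its lower bound, against −0.04 over all genes. All 24 genes were higher in every 15 DPE library than in every 10 DPE library, as were 9.22% of all genes tested.

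The gene with most counts, Avenin-3 1Dg0002263, had levels of 1.31, 1.37 and 1.04 CPM in AC Morgan at 10 DPE, which became 7230, 16727 and 9530 CPM by 15 DPE. In CDC Morrison it had 2.38 and 12.6 CPM in both libraries of 10 DPE, and the 15 DPE libraries reached 23743, 21162 and 22828 CPM. In both cultivars every 15 DPE library lay far above every 10 DPE library. The log2 fold change was 12.34 ± 0.92 (SE, edgeR's quasi-likelihood test, adjusted p = 4.5e-13).

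The other oat avenins rose alike. Avenin 4Dg0000849 went from 0.441 to 2.99 CPM over the 10 DPE libraries to 3781 to 11207 CPM at 15 DPE, a log2 fold change of 12.78 ± 0.87 (edgeR's quasi-likelihood test, adjusted p = 5.7e-14). Avenin-E 1Dg0002265 went from 0.0465 to 0.469 CPM to 1471 to 3669 CPM, a log2 fold change of 13.43 ± 0.87 (adjusted p = 1.7e-14 by the same edgeR test). Avenin-3 Ung0000157 had a log2 fold change of 14.00 ± 1.02 (edgeR, adjusted p = 2.9e-13).

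The wheat-named storage genes rose at the same step. The glutenin-like gene 1Dg0001681 had 0.198 to 0.851 CPM at 10 DPE and 2728 to 11395 CPM at 15 DPE, with a log2 fold change of 13.54 ± 0.84 (edgeR's quasi-likelihood test, adjusted p = 6.8e-15). The gliadin-like gene Ung0000159 rose by 10.06 ± 0.77 on the log2 scale (edgeR, adjusted p = 1e-12). The smallest rise among the 24 genes was that of gliadin-like 3Dg0002796, with a log2 fold change of 9.46 ± 0.85.

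The 4 avenin-like genes did not share this course. Over all 107 libraries of both experiments, a1 gene 7Ag0000584 stayed at 1.71 to 8.81 CPM (median 4.68) and a4 gene 3Dg0002568 at 0.666 to 9.02 CPM (median 2.81). The a5 gene 7Dg0003562 stayed at 0.342 to 8.84 CPM and a1 gene 5Cg0003260 at 2.55 to 10.8 CPM. From 10 to 15 DPE their log2 fold changes were −0.16 to 0.38 and none passed the test. With library totals alone for scaling, without TMM factors, all 4 were called lower and 24 genes higher. The small share of counts at 10 DPE included these avenin-like genes. At that time Avenin-like a1 stood at a mean of 8.10 CPM summed in AC Morgan and 6.94 CPM in CDC Morrison. Avenin-3 stood at 5.73 and 16.7 CPM.

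**Figure D2:**
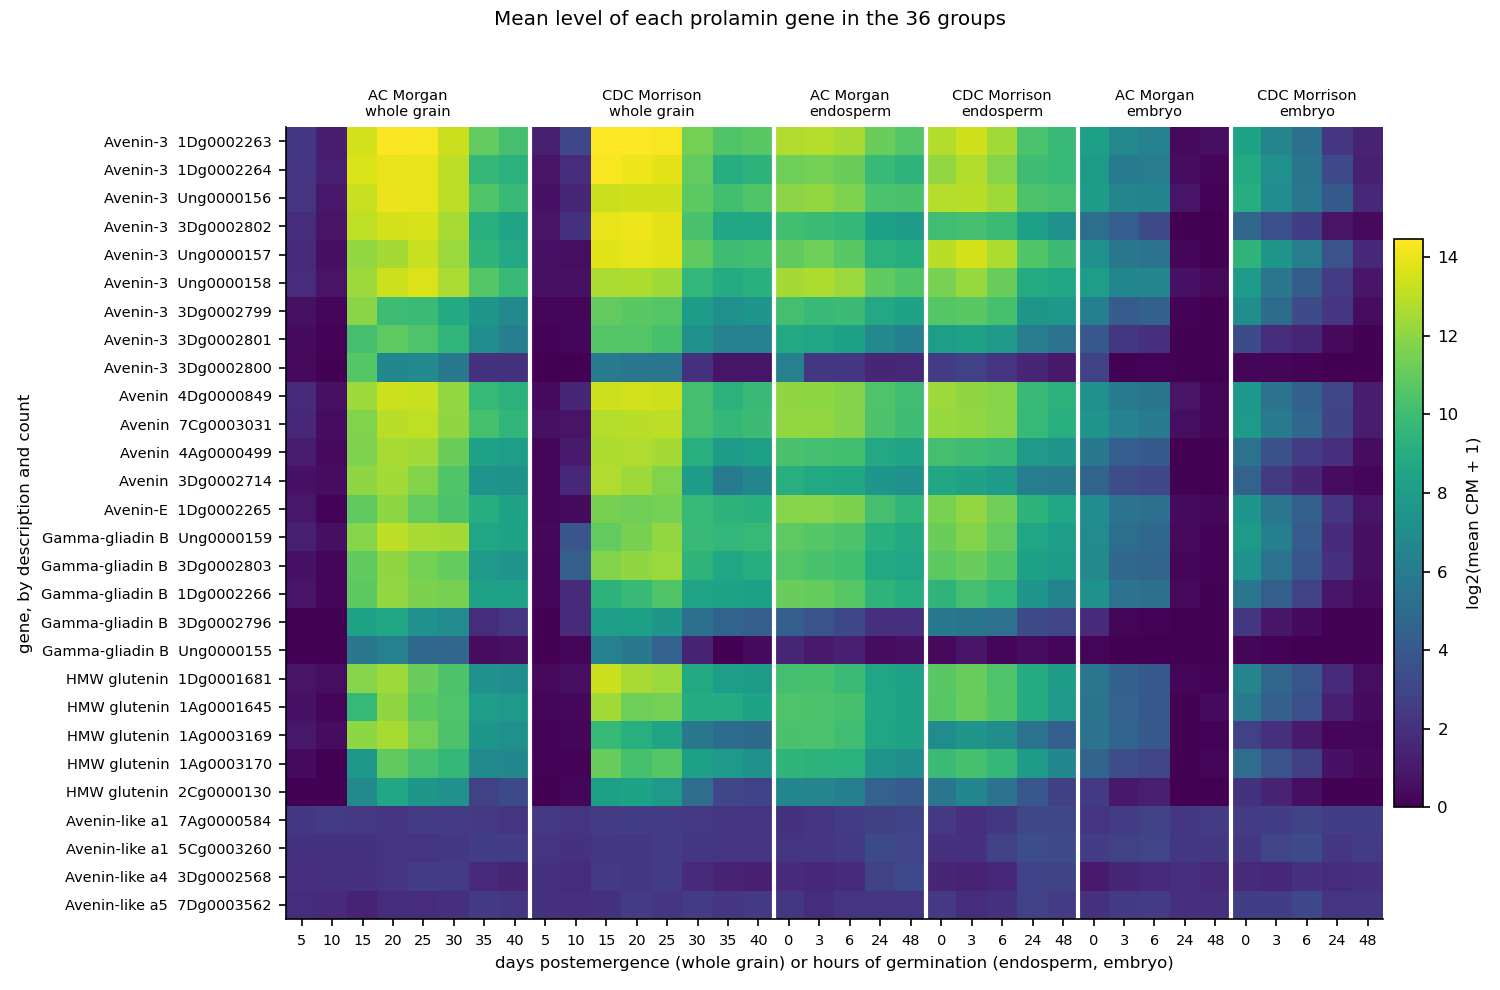
Mean level of each prolamin gene in the 36 groups as log2(mean CPM + 1), with genes in rows by description and groups in columns by cultivar, tissue and time. The 24 storage-type genes are low at 5 and 10 DPE and high from 15 to 25 DPE, while the 4 avenin-like genes at the bottom stay between 0.342 and 10.8 CPM in all 107 libraries.

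Starchy endosperm markers moved at the same step. Of 49 such genes (37 for 12S globulins, 9 for puroindolines and 3 for granule-bound starch synthase 1), 47 rose from 10 to 15 DPE (median log2 fold change 13.15), and their summed level went from 518 to 1028 CPM at 10 DPE to 286391 to 799296 CPM at 15 DPE. Chlorophyll-binding protein genes, which mark green maternal tissue, fell in 47 of 64 tested cases (median −1.81). The part of either in the prolamin rise was not tested.

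Among 21 genes for transcription factors tied to seed storage genes in other cereals, 10 rose and 4 fell from 10 to 15 DPE. Of all genes tested, 18.1% rose and 20% fell. The gene 4Ag0003361, described as the regulatory protein viviparous-1 that governs seed maturation in maize, had no counts in the 3 AC Morgan libraries of 10 DPE and 1.25 and 1.64 CPM in those of CDC Morrison. It stood at 9.41 to 16.7 CPM in the 6 libraries of 15 DPE, without overlap, and passed the test. Of 5 genes described as the rice bZIP factor RISBZ5, 3 rose (log2 fold changes 3.95 to 5.11) and 1 fell. Of 9 genes described as GAMYB, which in barley acts in gibberellin responses of the aleurone and in hordein gene expression, 3 rose by 1.65 to 1.86 and 3 fell.

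Genes for protein folding in the endoplasmic reticulum, where prolamins gain their disulfide bonds, moved in both directions. Of 40 such genes, 14 rose and 15 fell from 10 to 15 DPE, against 18.1% and 20% of all genes. The folding genes that rose included 5 of 6 described as protein disulfide isomerase-like 1-4 (log2 fold changes 3.60 to 4.16). All 3 genes for endoplasmic reticulum oxidoreductin-1, the enzyme that reoxidizes the isomerase, also rose (3.01 to 3.41).

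From 15 to 25 DPE no prolamin gene passed the main test in a step between neighboring times. Each step was the mean of both cultivars, so moves in opposite directions can cancel. Glutenin-like 1Ag0003170 had its highest mean at 20 DPE in AC Morgan (1986 CPM) and at 15 DPE in CDC Morrison (2228 CPM). From 15 to 20 DPE none of the 28 genes passed edgeR's quasi-likelihood test, where 0.908% of all genes did (5 of the 28 had an unadjusted p under 0.05, and neither DESeq2 nor limma called any). From 20 to 25 DPE none passed either, although 20% of all genes did (2 with an unadjusted p under 0.05, and 1 called by DESeq2 and 2 by limma). By group means, 18 of the 24 storage-type genes were highest at 20 DPE in AC Morgan, 2 at 15 DPE and 4 at 25 DPE. In CDC Morrison 11 were highest at 15 DPE, 8 at 20 DPE and 5 at 25 DPE. Since the steps did not pass the test, the order of these peaks is a description of means.

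Across developing grain, counts were concentrated in a few genes. By counts not corrected for transcript length, 1Dg0002263 took 14.4% and its neighbor 1Dg0002264 took 11.4% of prolamin counts, and 8 genes together took 70.7%. Summed by description, Avenin-3 held 55.7% to 64.2% of prolamin counts in the groups of 15, 20 and 25 DPE and Avenin 17.6% to 21.7%. Each avenin-like description held at most 0.0085% at these times.

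By group means the mix changed late. Avenin-E 1Dg0002265 made up 1.45% to 2.48% of prolamin counts in the group means of 15, 20 and 25 DPE, and 4.42% to 5.99% at 35 and 40 DPE. Its share in single libraries overlapped between these times, and the change in the mix was not tested. Avenin-E kept 25.5% (AC Morgan) and 23.6% (CDC Morrison) of its 25 DPE level at 35 DPE, the most of the 24 storage-type genes in both cultivars. Avenin-3 3Dg0002802 went the other way, from 7.76% to 11.7% of prolamin counts at 15, 20 and 25 DPE to 3.61% to 4.38% at 35 and 40 DPE. In dry endosperm it held at most 2.28%, where Avenin-E held 5.31% in CDC Morrison and 7.54% in AC Morgan.

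Prolamin transcripts declined in the steps from 25 to 30 DPE and from 30 to 35 DPE. From 25 to 30 DPE 25 of the 28 genes fell and none rose, against 15.6% of all genes that fell and 15.7% that rose (edgeR's quasi-likelihood test), with a median log2 fold change of −1.84. From 30 to 35 DPE 23 fell and none rose, against 18.3% and 12.7% of all genes, with a median of −1.67. This second step was larger in AC Morgan. There the median storage-type gene went from 51.8% of its 25 DPE level to 7.65%, and in CDC Morrison from 13.9% to 7.65%. For none of the 28 genes did every 35 DPE library lie below every 30 DPE library. From 35 to 40 DPE no gene of the 28 passed the test, as for nearly all genes (0.00645% called), and none had an unadjusted p under 0.05 in edgeR or was called by DESeq2 or limma. For 25 of the 28 genes every 40 DPE library lay below every 25 DPE library, which held for 19.2% of all genes tested.

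In AC Morgan, Avenin-3 1Dg0002263 went from 20836, 19657 and 20168 CPM at 25 DPE to 10679, 9055 and 10103 CPM by 30 DPE, and then to 3311, 900 and 1793 CPM. In CDC Morrison the same days gave 20591, 26416 and 15352 CPM, then 1382, 2183 and 4755 CPM, then 2472, 1504 and 489 CPM. In CDC Morrison the 30 and 35 DPE libraries overlapped, and in AC Morgan they did not. Over both cultivars the log2 fold change was −1.96 ± 0.50 for the first step and −1.61 ± 0.49 for the second (edgeR's quasi-likelihood test, adjusted p = 0.0025 and 0.012).

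The fall from 25 to 30 DPE was largest for Avenin 3Dg0002714, with a log2 fold change of −2.56 ± 0.45 (edgeR, adjusted p = 4.5e-05). The glutenin-like gene 1Dg0001681 fell by 2.11 on the log2 scale (SE 0.45, edgeR, adjusted p = 0.00043). Avenin-E 1Dg0002265 (−1.16 ± 0.44) and gliadin-like Ung0000159 (−1.22 ± 0.45) were near the threshold (edgeR, adjusted p = 0.042 and 0.034), and their calls were lost on leaving out any 1 of 9 and of 7 of the 12 libraries. The a4 gene 3Dg0002568, the only avenin-like gene called, stood at 4.03 to 5.41 CPM at 25 DPE and 1.18 to 5.46 CPM at 30 DPE, which overlapped (log2 fold change −0.56, edgeR adjusted p = 0.048).

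Starchy endosperm markers fell beside the prolamins, in 46 of 49 cases from 25 to 30 DPE (median −2.41) and in 38 from 30 to 35 DPE. Their summed level was 265786 to 580134 CPM at 25 DPE, 9334 to 177199 CPM at 30 DPE and 5218 to 50736 CPM at 35 DPE. Green tissue markers fell from 25 to 30 DPE in 42 of 64 cases, from 37.9 to 206 CPM summed to 7.44 to 109 CPM. Folding genes fell in 16 of 40 cases and rose in 5, against 15.6% and 15.7% of all genes. All 3 oxidoreductin-1 genes fell (log2 fold changes −2.13 to −1.38). Of 5 RISBZ5 genes 3 fell (−2.57 to −2.41), while viviparous-1 4Ag0003361 rose by 0.86 on the log2 scale and stood at 26.5 to 79.3 CPM at 30 DPE. The part of the markers in the prolamin decline was not tested. Without CDC Morrison 30 DPE replicate 3, 10 genes fell from 30 to 35 DPE in place of 23, with a median of −1.33. In a fit that kept CDC Morrison 10 DPE replicate 1 in its group, the calls were 24 for the rise from 10 to 15 DPE, 4 for the fall from 25 to 30 DPE and 9 for that from 30 to 35 DPE.

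In grain of 15, 20 and 25 DPE the shares of counts in prolamin transcripts overlapped between the cultivars at each time, while single copies differed. Over the mean of the 3 times, CDC Morrison was higher than AC Morgan for 3 of the 28 genes and lower for 3, against 11.4% and 12% of all genes (edgeR's quasi-likelihood test). The median log2 difference of the 28 genes was 0.24, where that of all genes was 0 to 2 decimals. Of 49 starchy endosperm markers 7 were higher and 4 lower, and of 64 green tissue markers 2 and 21. When counts were summed over each description, Avenin-like a5, which has a single gene, was the only one called.

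The clearest difference was that of the glutenin-like gene 1Ag0003169. In AC Morgan its 15 DPE libraries held 4219, 4748 and 3172 CPM, those of 20 DPE 4985, 7679 and 5828 CPM and those of 25 DPE 2426, 2711 and 3119 CPM. The CDC Morrison libraries held 906, 769 and 784 CPM, 695, 517 and 490 CPM, and 322, 409 and 320 CPM at the same times. It was the only gene of the 28 for which all 9 CDC Morrison libraries lay below all 9 AC Morgan libraries, against 3.04% of all genes tested. The log2 difference was −2.91 ± 0.33 (edgeR, adjusted p = 6.7e-09), and by time the gene was called lower at each day except 10 DPE, where its difference was −0.89.

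Other genes lower in CDC Morrison were gliadin-like 1Dg0002266 and Avenin-3 3Dg0002800. The first stood at 4136, 6359 and 2687 CPM in AC Morgan and at 779, 948 and 970 CPM in CDC Morrison at 20 DPE, and its log2 difference over the 3 times was −1.61 ± 0.33 (edgeR, adjusted p = 0.00019). The second had a log2 difference of −2.32 ± 0.72 (edgeR, adjusted p = 0.016), but it stood at 4531, 213 and 15.2 CPM in the 3 AC Morgan libraries of 15 DPE. Without AC Morgan 15 DPE replicate 1 its difference was −1.06 and no longer called (edgeR, adjusted p = 0.24).

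Genes higher in CDC Morrison were Avenin-3 Ung0000157, glutenin-like 1Ag0003170 and a5 gene 7Dg0003562. The log2 differences of Ung0000157 (1.20 ± 0.43) and 1Ag0003170 (1.05 ± 0.38) were near the threshold (edgeR, adjusted p = 0.039 and 0.044), and each call was lost on leaving out any 1 of 13 of the 18 libraries. At 15 DPE 3 of the 28 genes were called higher in CDC Morrison and 2 lower, against 4.24% and 5.16% of all genes, at 20 DPE 2 were called (13.4% of all genes) and at 25 DPE 1 (9.65%). At 15 DPE 1Ag0003170 stood at 2325, 1964 and 2393 CPM in CDC Morrison and at 191, 243 and 195 CPM in AC Morgan, without overlap. That difference was 3.41 ± 0.72 on the log2 scale (edgeR, adjusted p = 0.00091). The a5 gene 7Dg0003562 differed by 0.76 ± 0.18 (edgeR, adjusted p = 0.0013) at 2.71 to 5.25 CPM in CDC Morrison and 0.342 to 2.81 CPM in AC Morgan.

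**Figure D3:**
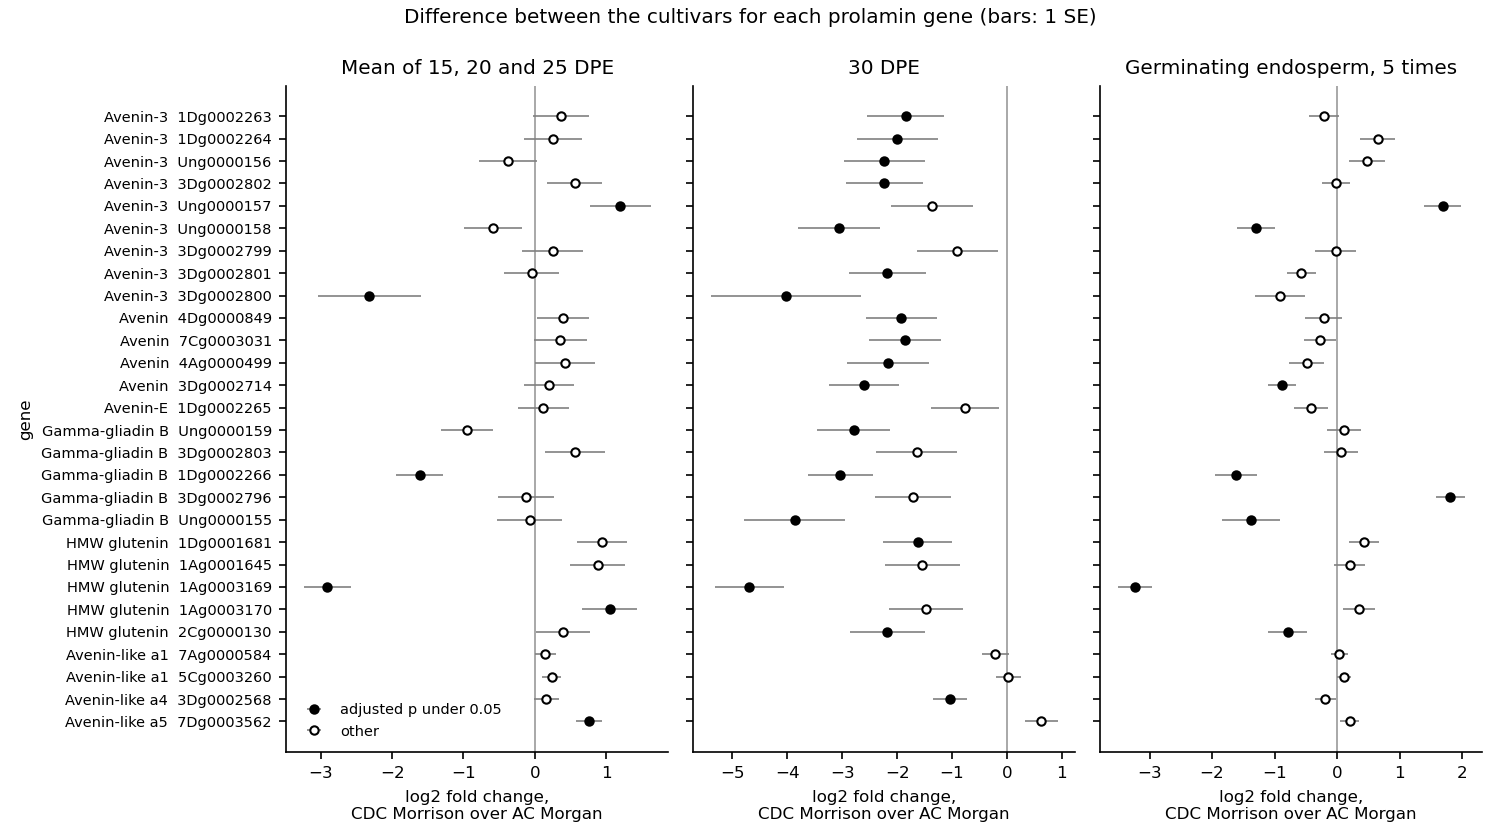
Log2 fold change of CDC Morrison over AC Morgan for each prolamin gene, as the mean of 15, 20 and 25 DPE (left), at 30 DPE (middle) and over the 5 times in germinating endosperm (right). Points are the fitted values, bars are 1 SE, and filled points have an edgeR adjusted p under 0.05. Genes called lie on both sides of 0 in the left and right panels, and all 18 genes called at 30 DPE lie below 0.

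Some neighboring copies differed in opposite directions. Avenin-3 copies Ung0000157 and Ung0000158 have neighboring IDs, and as a pair chosen after their values were seen they divided their summed level differently in the cultivars. Ung0000157 held 23.9% to 48.3% of the pair in AC Morgan grain (19 libraries with at least 10 CPM in the pair) and 60.8% to 73.9% in CDC Morrison grain (18 libraries). In germinating endosperm it held 22.7% to 28.5% in AC Morgan and 65.1% to 79.0% in CDC Morrison, with 15 libraries each. The split of this pair did not overlap between cultivars in whole grain, endosperm or embryo. Other pairs looked at did overlap in whole grain. For 4Ag0000499 with 4Dg0000849 the first gene held 20.4% to 39.0% in AC Morgan and 23.0% to 39.7% in CDC Morrison. The splits of 3Dg0002799 with 3Dg0002802 and of 1Dg0002263 with 1Dg0002264 overlapped there too. The summed counts of the run Ung0000155 to Ung0000159 differed by −0.03 on the log2 scale over 15, 20 and 25 DPE.

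The glutenin-like genes 1Ag0003169 and 1Dg0001681 are not neighbors, as they lie on chromosomes 1A and 1D. They gave a second pair whose split differed between the cultivars, also chosen after their values were seen. The A-subgenome gene 1Ag0003169 held 49.6% to 58.5% of the pair in AC Morgan grain and 6.06% to 12.8% in CDC Morrison grain. In germinating endosperm it held 49.5% to 55.7% and 3.25% to 10.5%. Within a cultivar the ranges of whole grain and endosperm overlapped. How reads were divided between similar copies, or between alleles that differ from the reference transcriptome, was not tested.

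**Figure D4:**
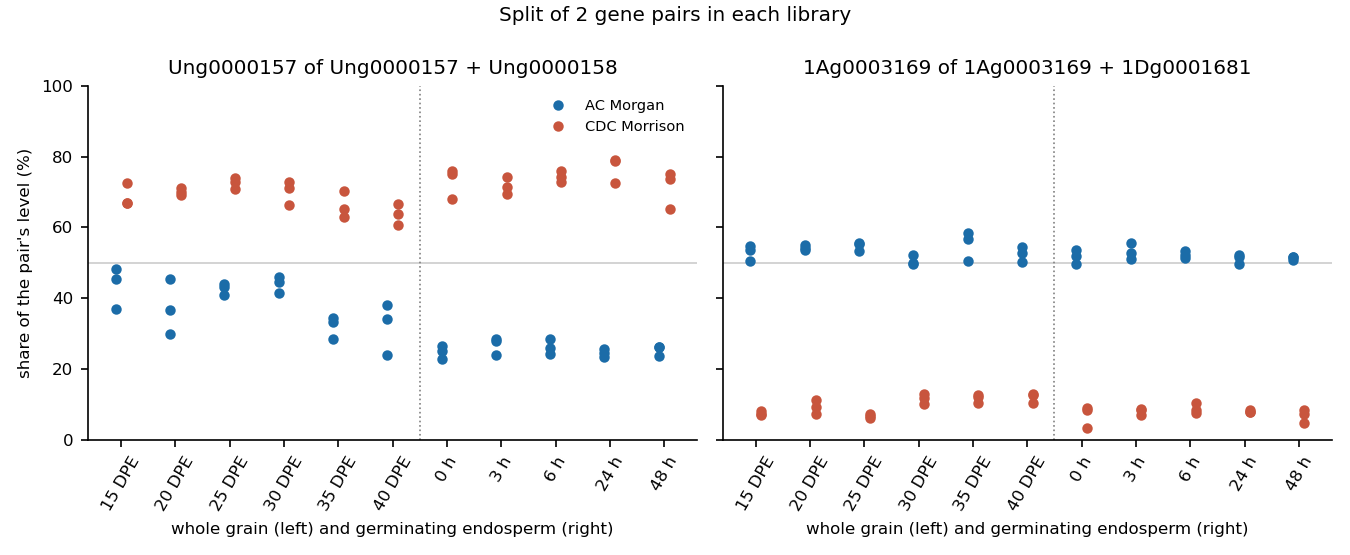
Share of the summed CPM of 2 gene pairs held by the first gene of each pair, in percent, for each library of whole grain from 15 DPE (left of the dotted line) and germinating endosperm (right of it). Points are libraries. Ung0000157 holds 22.7% to 48.3% of its pair in AC Morgan and 60.8% to 79.0% in CDC Morrison, and 1Ag0003169 holds 49.5% to 58.5% and 3.25% to 12.8% of its pair.

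At 30 DPE most prolamin genes were lower in CDC Morrison. Of the 28 genes 18 were called lower and none higher, against 19.2% and 17% of all genes (edgeR's quasi-likelihood test), with a median log2 difference of −1.89. In 24 genes all 3 CDC Morrison libraries lay below all 3 AC Morgan libraries, which held for 24.9% of all genes tested. Summed by description, Avenin (log2 difference −2.01), Avenin-3 (−2.04), Gamma-gliadin B (−2.52) and the glutenin DY10 genes (−1.97) were called lower, and Avenin-E (−0.76) was not.

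The glutenin-like gene 1Ag0003169 differed most, with 1284, 1371 and 1516 CPM in AC Morgan and 26.6, 32.5 and 102 CPM in CDC Morrison (log2 difference −4.69 ± 0.63, edgeR, adjusted p = 3.5e-07). Gliadin-like Ung0000159 stood at 5754, 4229 and 7445 CPM in AC Morgan, about its 25 DPE level, and at 828, 631 and 1064 CPM in CDC Morrison. That difference was −2.79 ± 0.67 on the log2 scale (edgeR, adjusted p = 0.0012). Avenin-3 1Dg0002263 differed by −1.84 ± 0.70 (edgeR, adjusted p = 0.038), with no overlap between the cultivars, and this call was lost without any 1 of 5 of the 6 libraries.

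The count at 30 DPE rested on few libraries. It was 5 with CDC Morrison 10 DPE replicate 1 kept in the fit, 6 without CDC Morrison 30 DPE replicate 1 or replicate 2, 23 when its replicate 3 was left out and 11 when AC Morgan 30 DPE replicate 1 was. As a percentage of the 25 DPE mean, the storage-type genes kept 41.0% to 96.1% at 30 DPE in AC Morgan (median 51.8%) and 6.59% to 29.6% in CDC Morrison (median 13.9%). Whether the step from 25 to 30 DPE differed between cultivars was tested directly, and none of the 28 genes passed, where 6.39% of all genes did (15 of the 28 had an unadjusted p under 0.05, and DESeq2 called 3 and limma 13). Without CDC Morrison 30 DPE replicate 3, 14 passed, and without CDC Morrison 25 DPE replicate 3, 1 passed.

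Starchy endosperm markers were lower in CDC Morrison at 30 DPE in 35 of 49 cases and higher in 3 (median −2.55), with summed levels of 168949 to 177199 CPM in AC Morgan and 9334 to 56927 CPM in CDC Morrison. Green tissue markers were lower in 35 of 64 cases, at 33.0 to 109 CPM summed in AC Morgan and 7.44 to 9.21 CPM in CDC Morrison. Folding genes were lower in 16 of 40 cases and higher in 3, against 19.2% and 17% of all genes. The lower folding genes included all 3 oxidoreductin-1 genes (log2 differences −2.17 to −1.20). Viviparous-1 4Ag0003361 was higher in CDC Morrison, by 1.27 on the log2 scale. Their part in the prolamin difference was not tested.

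From 30 to 35 DPE the step differed between the cultivars for 3 of the 28 genes, a test chosen after seeing the data, against 6.43% of all genes. Gliadin-like 3Dg0002796 (4.83 ± 1.03), Ung0000159 (3.78 ± 0.91) and 1Dg0002266 (3.11 ± 0.80) fell less in CDC Morrison, which was already low at 30 DPE (edgeR, adjusted p = 0.0048, 0.011 and 0.015). The count was 11 without CDC Morrison 30 DPE replicate 3, 5 without CDC Morrison 35 DPE replicate 3 and 2 without CDC Morrison 30 DPE replicate 2.

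By 35 and 40 DPE few prolamin genes differed between the cultivars. At each of these times 1 gene was called higher in CDC Morrison and 1 lower, where 12.7% and 12.9% of all genes were called. Glutenin-like 1Ag0003169 was the lower gene (log2 differences −2.56 and −2.31), and gliadin-like 3Dg0002796 the higher (3.12 and 2.49). The latter stood at 4.41, 1.69 and 2.25 CPM in AC Morgan and at 42.4, 20.8 and 9.23 CPM in CDC Morrison at 35 DPE. At 40 DPE the call of 3Dg0002796 was lost without AC Morgan replicate 2 or 3 or CDC Morrison replicate 3, which left 1 gene.

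Before grain filling, storage-type transcripts were traces that differed between libraries. At 5 DPE 7 of the 28 genes were called lower in CDC Morrison and none higher (4.91% and 4.74% of all genes), with log2 differences of −2.84 to −2.42. All 7 calls were lost without AC Morgan 5 DPE replicate 2, in which 1Dg0002263 had 9.02 CPM against 0.752 to 2.35 CPM in the other 5 libraries. Leaving out AC Morgan replicate 3 gave 11 genes, and leaving out CDC Morrison replicate 1, 2 or 3 gave 3, 1 and 2.

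At 10 DPE 7 of the 28 genes were called higher in CDC Morrison and none lower, against 14.5% and 11.2% of all genes. Gliadin-like 3Dg0002803 differed most, with 6.04 and 34.2 CPM in the 2 CDC Morrison libraries (log2 difference 6.93 ± 1.03, edgeR, adjusted p = 2.7e-06). The count was 2 without CDC Morrison replicate 3, 4 without AC Morgan replicate 3, and 24 with CDC Morrison replicate 1 kept. Green tissue markers were higher in CDC Morrison at this time in 49 of 64 cases, at 1925 to 2442 CPM summed against 218 to 525 CPM. Folding genes were higher in 24 of 40 cases and starchy endosperm markers in 5 of 49, and the part of these in the difference was not tested. From 5 to 10 DPE 2 genes rose, where 14.7% of all genes were called, and neither call was kept without CDC Morrison 10 DPE replicate 3. Leaving out AC Morgan 10 DPE replicate 2, AC Morgan 5 DPE replicate 1 or 3, or CDC Morrison 5 DPE replicate 2 or 3 left 1 gene.

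In germination, dry endosperm still held prolamin transcripts in quantity, and these declined mainly after 6 h. They took 1.95% to 5.69% of counts at 0 h (median 3.66%), 2.77% to 6.73% at 3 h, 2.75% to 4.21% at 6 h, 0.538% to 1.80% at 24 h and 0.659% to 1.42% at 48 h. The ranges of 0, 3 and 6 h overlapped each other, and none of them overlapped 24 or 48 h. Between 0 and 48 h 23 of the 28 genes fell and 3 rose, against 24.9% and 29% of all 62447 genes tested (edgeR's quasi-likelihood test), with a median log2 fold change of −2.45 beside 0.13 over all genes.

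Avenin-3 1Dg0002263 stood at 4855, 8832 and 7130 CPM in AC Morgan and 8296, 4891 and 8090 CPM in CDC Morrison at 0 h. At 48 h it stood at 1682, 1753 and 1115 CPM and at 780, 877 and 959 CPM. The log2 fold change over both cultivars was −2.61 ± 0.40 (edgeR, adjusted p = 3.7e-07). The 23 genes that fell were all of the storage type, with log2 fold changes of −3.65 to −2.13, and the remaining storage-type gene, gliadin-like Ung0000155, had −1.41 (edgeR, adjusted p = 0.12).

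The 3 genes that rose in endosperm were avenin-like. The a4 gene 3Dg0002568 went from 1.09 to 3.55 CPM at 0 h to 5.02 to 9.02 CPM at 48 h without overlap (log2 fold change 1.93, edgeR, adjusted p = 9.1e-08). The a1 genes 5Cg0003260 and 7Ag0000584 rose by 1.25 and 1.01 on the log2 scale, and a5 gene 7Dg0003562 had 0.15 and was not called.

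Per gene, the level left at 48 h was 2.81% to 32.5% of that at 0 h for the storage-type genes in AC Morgan endosperm (median 23.5%) and 10.9% to 65.0% in CDC Morrison (median 13.2%). The lowest value, of 3Dg0002800 in AC Morgan, rests on 1 library, as its 0 h libraries held 7.10, 4.38 and 223 CPM. The highest, of Ung0000155 in CDC Morrison, is that of a gene near 0, with a mean of 0.288 CPM at 0 h and 0.187 CPM at 48 h. The other 22 storage-type genes kept 14.8% to 32.5% in AC Morgan and 10.9% to 18.8% in CDC Morrison. Whether the change differed between cultivars was tested directly, and none of the 28 genes passed, where 1.48% of all genes did (1 had an unadjusted p under 0.05 in edgeR, and neither DESeq2 nor limma called any).

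**Figure D5:**
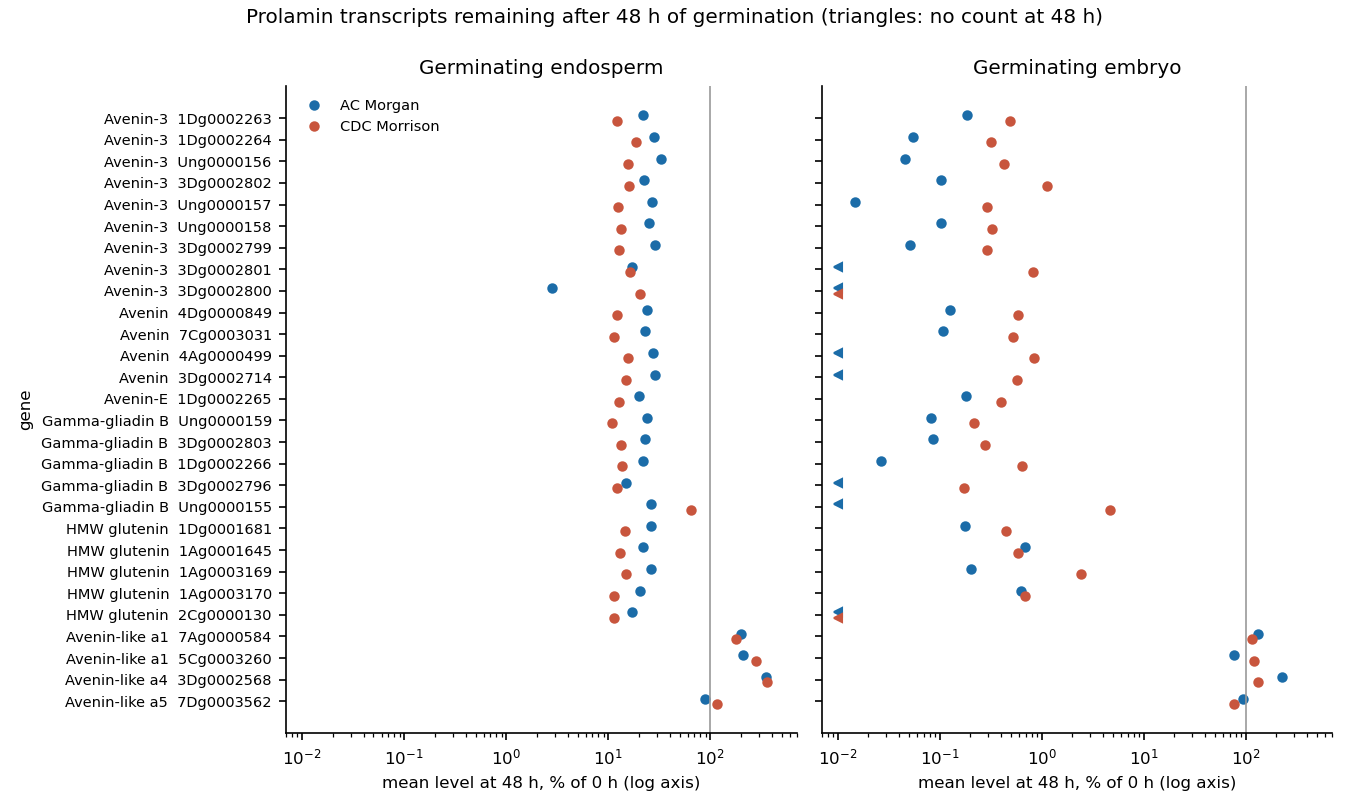
Mean CPM at 48 h as a percentage of the mean at 0 h for each prolamin gene in germinating endosperm (left) and embryo (right), on a log axis, by cultivar. Triangles at the left edge mark genes with no count at 48 h, and the vertical line marks 100%. Storage-type genes keep 10.9% to 32.5% in endosperm, apart from 3Dg0002800 in AC Morgan (2.81%) and Ung0000155 in CDC Morrison (65.0%, near 0 CPM at both times), and at most 4.65% in embryo (Ung0000155, also near 0), and the 4 avenin-like genes keep 76.4% or more in both.

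Starchy endosperm markers fell beside the prolamins in endosperm, in 47 of 49 cases (median −2.04), from 49625 to 108692 CPM summed at 0 h to 9521 to 22932 CPM at 48 h. Markers of the aleurone, the living outer endosperm that secretes hydrolases, rose in 20 of 22 cases (median 7.57), from 441 to 613 CPM to 16849 to 35629 CPM. The same list was not particular to endosperm, as it rose in the embryo libraries in 21 of 22 cases (median 2.67). At 0 h 2 of these genes were higher in endosperm than in embryo and 9 lower, and at 48 h 13 and 3. Folding genes rose in 26 of 40 cases and fell in 6, against 29% and 24.9% of all genes. The 3 genes for luminal-binding protein 3, a chaperone of the endoplasmic reticulum, rose by 1.89 to 2.23 on the log2 scale. Whether RNA of other endosperm cells took up the share that prolamins lost was not tested.

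Embryo libraries held prolamin transcripts at a lower level, of which traces were left at 24 h. They took 0.156% to 0.600% of counts at 0 h, 0.0447% to 0.180% at 3 h, 0.0208% to 0.174% at 6 h, 0.0021% to 0.0218% at 24 h and 0.0019% to 0.0052% at 48 h. The late shares included the steady avenin-like genes. At 48 h Avenin-like a1 stood at a mean of 8.67 CPM summed in AC Morgan and 10.2 CPM in CDC Morrison. Avenin-3 stood at 1.16 and 8.84 CPM. From 0 to 48 h 24 of the 28 genes fell and 1 rose, against 27.7% and 40.3% of all genes (edgeR's quasi-likelihood test). The median log2 fold change was −8.54, and −8.25 with the 7 genes that had a group at 0 set to their bounds, beside 0.31 over all genes. Avenin-3 1Dg0002263 went from 175 to 533 CPM at 0 h to 0.502 to 1.73 CPM at 48 h, a log2 fold change of −8.35 ± 0.54 (edgeR, adjusted p = 3.9e-18). The gene that rose was the a4 gene 3Dg0002568 (log2 fold change 0.79, edgeR, adjusted p = 0.0081).

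Starchy endosperm markers declined in the embryo libraries too. They fell in 44 of 49 cases (median −7.70), from 1221 to 4330 CPM summed at 0 h to 19.4 to 61.2 CPM at 48 h. The ratio of prolamin to globulin counts was 0.863 to 1.80 in embryo and 0.718 to 1.32 in endosperm at 0 h, and these ranges overlapped. Green tissue markers rose in the embryo libraries in 61 of 64 cases, and the part of endosperm RNA in these libraries was not tested.

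At 0 h 24 of the 28 genes were higher in endosperm than in embryo and none lower, against 16.1% and 22.5% of all genes (edgeR's quasi-likelihood test), and these were the 24 storage-type genes. The log2 differences ran from 2.01 for Ung0000155 to 5.09 for Avenin-3 3Dg0002802, with 4.50 ± 0.44 for 1Dg0002263 (edgeR, adjusted p = 1.5e-11). At 48 h 27 genes were higher in endosperm, against 25.6% of all genes, with a median log2 difference of 10.38, or 10.28 with bounds for the 7 genes at 0 in an embryo group. The avenin-like genes differed by −0.42 to 0.32 at 0 h and by 0.30 to 1.46 at 48 h. Of 90 embryo markers, 26 to 40 had no count in an endosperm library of 0 h. Of the 85 tested, 28 were lower in endosperm than in embryo at 0 h and 11 higher, against 22.5% and 16.1% of all genes.

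In germinating endosperm single copies differed between the cultivars. Over the 5 times 2 of the 28 genes were higher in CDC Morrison and 6 lower, against 18.6% and 16.8% of all genes (edgeR's quasi-likelihood test). Glutenin-like 1Ag0003169 was again the only gene with all CDC Morrison libraries below all AC Morgan libraries, at 8.37 to 276 CPM and 277 to 1896 CPM, a separation that 1.67% of all genes tested showed (log2 difference −3.23 ± 0.28, edgeR, adjusted p = 7.7e-14). Gliadin-like 1Dg0002266 (−1.61 ± 0.34, edgeR, adjusted p = 0.00012) and Avenin-3 Ung0000158 (−1.29 ± 0.30, edgeR, adjusted p = 0.00054) were lower too. Gliadin-like 3Dg0002796 (1.81 ± 0.23) and Avenin-3 Ung0000157 (1.69 ± 0.29) were higher (edgeR, adjusted p = 1.8e-08 and 5.2e-06). The developing grain and germination libraries come from different samples, but no test across them was made.

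In embryo 14 of the 28 genes were higher in CDC Morrison over the 5 times and none lower, against 18.7% and 13.2% of all genes (edgeR's quasi-likelihood test). Ung0000157 differed most, at 0.741 to 1214 CPM in CDC Morrison and 0 to 237 CPM in AC Morgan over the 15 libraries of each (log2 difference 3.41 ± 0.40, edgeR, adjusted p = 1.2e-09). Avenin-3 1Dg0002264 (1.97 ± 0.35) and Ung0000156 (1.90 ± 0.37) followed (edgeR, adjusted p = 9.6e-06 and 3.8e-05). Summed Avenin-3 was not clearly higher in CDC Morrison at every time. At 6 h its AC Morgan libraries held 283, 172 and 792 CPM. For CDC Morrison the level was 78.0, 341 and 286 CPM. At 24 h the values, in this order, were 3.81, 2.05 and 1.48 CPM, then 87.2, 60.5 and 2.78 CPM. At 48 h, the only time without overlap, they were 0.742, 0.821 and 1.91 CPM, then 11.8, 7.47 and 7.27 CPM. Without CDC Morrison embryo 24 h replicate 1, 10 genes were called. For 3 genes the difference could not be estimated because groups were at 0. The AC Morgan group of 48 h was at 0 for 7 genes, and no bounds were set for this comparison. Starchy endosperm markers were higher in CDC Morrison embryo libraries in 21 of 49 cases and lower in 3, and their part in the prolamin difference was not tested. With limma on the authors' normalized values 5 of the 28 genes were higher and 2 lower, and with DESeq2 16 and 1.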

How the data were processed

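RNA-seq libraries (TruSeq Stranded mRNA, single-end) of whole developing grain and of germinating embryo and endosperm were analyzed. The authors trimmed reads with Trim Galore, removed rRNA reads with Bowtie2 and quantified transcripts with Salmon against the OT3098 oat transcriptome. The deposited estimated counts per gene, which need not be whole, were rounded here. The deposited normalized values are log2-scale variance-stabilized values that the authors made with DESeq2, and they were used only in an alternative fit with limma.

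Genes were kept with at least 5 counts in 5% of libraries (62030 in developing grain, 62447 in germination, all 28 prolamin genes in both). Each experiment was fitted by itself in R 4.3.3 with edgeR 4.0.16 (TMM scaling, quasi-likelihood test) as 16 cultivar-by-time groups in 47 libraries, or 20 cultivar-by-tissue-by-time groups in 60. P-values were Benjamini-Hochberg adjusted over all genes kept, with a threshold of 0.05. A step in time was the mean of both cultivars. CDC Morrison 10 DPE replicate 1 was left out as in the authors' normalized table. A gene with a group at 0 was bounded at 3 counts over that group. Alternatives used limma 3.58.1, DESeq2 1.42.0, other scalings and filters, sums over copies, and each library left out in turn. Fits were checked on simulated data. No 2 libraries of a group agreed within counting error. Figures and shares were made with Python 3.11.15.

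The 28 genes and the marker, regulator and folding lists were chosen with earlier results of these data known. Named genes were the 12 with most counts in developing grain, the top gene of each description, up to 4 per direction with the smallest p between cultivars at 15, 20 and 25 DPE, and the 4 highest in embryo. Other genes singled out, among them 3Dg0002796, 3Dg0002803, Ung0000155 and 4Ag0003361, were chosen after their values were seen. The tests of the step from 30 to 35 DPE and of the endosperm change, the pairs, the sums over copies and the fit of 15 to 40 DPE alone were also chosen after seeing the data.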

Additional observations from a re-analysis of the deposited data

Results flagged for a closer look

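The change from 30 to 35 DPE differed between the cultivars in 3 gliadin-like genes by the interaction test in edgeR, chosen after seeing the data. The log2 difference of the steps was 4.83 for 3Dg0002796, 3.78 for Ung0000159 and 3.11 for 1Dg0002266, each positive because AC Morgan fell further. In AC Morgan Ung0000159 went from 5754, 4229 and 7445 CPM to 614, 217 and 309 CPM over this step, and in CDC Morrison from 828, 631 and 1064 CPM to 969, 902 and 403 CPM. In AC Morgan 3Dg0002796 went from 115, 134 and 132 CPM to 4.41, 1.69 and 2.25 CPM, and in CDC Morrison from 17.1, 10.8 and 88.4 CPM to 42.4, 20.8 and 9.23 CPM, where the times overlapped. The call of 1Dg0002266 was lost without CDC Morrison 30 DPE replicate 2.

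CDC Morrison 10 DPE replicate 1, which was in the comparisons only where it is said to be kept, held 5.66% of its counts in the 28 genes, above the other 5 libraries of 10 DPE. Of its 24 storage-type genes, 24 lay above each of those libraries and 21 below each CDC Morrison library of 15 DPE. Whether its label, the age of the grain or its low total of 2184402 counts goes with this was not tested.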

How the results depend on the processing

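Of 97 called values of single genes in developing grain, 56 lost their call with all 48 libraries in the fit and 41 kept it. Of 187 called values in both experiments, limma on the normalized values kept 166, library totals alone 175, the replicate block 184, no filter 185, relative log expression scaling 186, and DESeq2, scaling without the 28 genes and another low-count filter all 187. With 1 library left out 2173 of 2347 values kept their call. The 2 that changed direction were the cultivar differences in embryo of 3Dg0002802 (−0.11) and 4Ag0000499 (−0.074) with limma on the normalized values. The cause was not tested for any of the following.

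With all 48 developing grain libraries the counts of genes called became 21 for 10 against 5 DPE, 4 for 30 against 25 DPE, 9 for 35 against 30 DPE, 3 for the cultivar difference over 15, 20 and 25 DPE and 1 for the cultivar difference in the step from 30 to 35 DPE. Limma gave 1 for 10 against 5 DPE, 2 for 25 against 20 DPE, 13 and 8 for the cultivar differences in the steps from 25 to 30 and from 30 to 35 DPE, and 7 for the cultivar difference in embryo. DESeq2 gave 5, 1, 3 and 5 for the first 4 of these. For the step from 25 to 30 DPE the cultivar difference had 1 call with relative log expression scaling and 2 in libraries of 15 to 40 DPE only. With library totals alone, 15 genes were called for 30 against 25 DPE (1 higher, 14 lower), and the median of all genes moved by −1.08 to 0.39 in developing grain and −0.57 to 0.57 in germination. The mean share of counts at 15, 20 and 25 DPE was 10.0%, and 12.7% outside the 10 other most abundant genes.

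With 1 library left out the counts ran from 0 to 3 for 10 against 5 DPE (main 2), 0 to 1 for 25 against 20 DPE (1 without CDC Morrison 25 DPE replicate 2 or 20 DPE replicate 3), 10 to 23 for 35 against 30 DPE, 0 to 14 and 2 to 11 for the cultivar differences in the steps from 25 to 30 and from 30 to 35 DPE, 17 to 25 for 30 against 25 DPE, 4 to 7 for the cultivar difference over 15, 20 and 25 DPE and 10 to 16 for that in embryo. At 15 DPE the 5 cultivar differences became 3 without CDC Morrison replicate 1 or 3. The rise from 10 to 15 DPE kept 24 calls in every leave-out and the endosperm change 26.

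The sources used here do not tie replicate numbers to shared grain or batches. Correlations of the deviations of same-numbered libraries ran from −0.41 to 0.43 in developing grain (median 0.01) and from −0.38 to 0.78 in germination (median 0.03), so not every pair deviated together. A library correlated best with one of its own number in 17 of 47 cases in developing grain and in 42 of 60 in germination, which is a hint from the data and not from the design. A replicate block gave 4 calls for the cultivar difference over 15, 20 and 25 DPE (main 6) and 43 for those by time (main 39), and the same counts for all other comparisons.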

Other observations

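Avenin-3 3Dg0002800 was lowest in replicate 3 in 10 of 12 groups of 15 to 40 DPE. For each of the other 27 genes the replicate number that was lowest most often was so in at most 8 groups. This gene was picked out after its values were seen, and the labels do not tie replicate numbers to a shared batch.

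The neighboring Avenin-3 genes 1Dg0002263 and 1Dg0002264 divided their summed level differently in the germinating tissues, a pair chosen after its values were seen. In libraries with at least 10 CPM in the pair, 1Dg0002263 held 67.6% to 75.5% (median 71.9%) in AC Morgan endosperm and 48.9% to 67.9% (median 57.8%) in AC Morgan embryo. In CDC Morrison it held 48.5% to 64.6% (median 60.5%) and 31.0% to 50.2% (median 41.4%). In both cultivars the tissues overlapped only at the edges of their ranges, and the difference was not tested. In whole grain the ranges were 46.0% to 76.0% in AC Morgan and 44.3% to 76.2% in CDC Morrison.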
